A study of Mus musculus with 6 samples.

Results

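The transcription factor genes *Phox2a*, *Hand2*, *Insm1*, *Sox4* and *Sox11* were followed as factors of neuronal differentiation across autonomic ganglia. They were taken by symbol, 5 of the 32285 genes in the count matrices. Whole ganglia of 5-day-old mouse pups of both sexes had been dissociated and single cells sequenced from 6 libraries, in which each captured RNA molecule counts once as a unique molecular identifier (UMI). In all libraries the animals carried a Cre transgene and a Cre-dependent tdTomato reporter (RosatdT). The stellate, coeliac and lumbar ganglia are sympathetic, the sphenopalatine ganglion is parasympathetic, and the pelvic ganglion holds noradrenergic and cholinergic neurons. Stellate, sphenopalatine and pelvic 1 libraries were made in round 1 of sequencing, and coeliac, lumbar and pelvic 2 libraries in round 2. Since the pelvic ganglion alone was sequenced in 2 libraries, comparisons of any other single ganglion carry no replicate check.

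The 5 genes belong to the program that turns neural crest derivatives into autonomic neurons. *Phox2a* encodes a paired-like homeodomain protein of autonomic neurons and their precursors. *Hand2* encodes a basic helix-loop-helix factor needed for the growth and noradrenergic character of sympathetic neurons, *Insm1* a zinc finger protein transiently made by neuronal and endocrine progenitors, and *Sox4* and *Sox11* the SoxC proteins of the HMG box family, which act in immature neurons.

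Gene positions refer to GRCm38 and the GENCODE M21 annotation. *Phox2a* lies on chromosome 7 from 101818313 to 101822726, plus strand, and *Hand2* on chromosome 8 from 57320983 to 57324633, plus strand. *Insm1* lies on chromosome 2 from 146221921 to 146225020, plus strand. *Sox4* lies on chromosome 13 from 28948919 to 28953713 and *Sox11* on chromosome 12 from 27334264 to 27342574, both on the minus strand. All are protein-coding.

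RefSeq promoters (GRCm38.p6, 300 bases) matched 4 of the 5 members, *Insm1* being the one not matched. Those printed here belong to *Hand2* and *Sox4*, the members whose difference between noradrenergic and cholinergic neurons was not the same in pelvic and sympathetic libraries. They run 5′ to 3′ on the strand of the gene, from 250 bases before to 50 after the start, and capitals mark the letters CANNTG, the E-box that basic helix-loop-helix proteins can bind.
Hand2, chr8:57320733-57321032, plus strand: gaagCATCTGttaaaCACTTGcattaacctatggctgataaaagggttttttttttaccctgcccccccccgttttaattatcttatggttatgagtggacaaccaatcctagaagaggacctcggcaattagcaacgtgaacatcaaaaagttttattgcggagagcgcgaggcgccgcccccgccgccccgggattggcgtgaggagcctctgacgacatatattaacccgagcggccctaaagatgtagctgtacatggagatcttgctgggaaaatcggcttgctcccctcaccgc
Sox4, chr13:28953650-28953949, minus strand: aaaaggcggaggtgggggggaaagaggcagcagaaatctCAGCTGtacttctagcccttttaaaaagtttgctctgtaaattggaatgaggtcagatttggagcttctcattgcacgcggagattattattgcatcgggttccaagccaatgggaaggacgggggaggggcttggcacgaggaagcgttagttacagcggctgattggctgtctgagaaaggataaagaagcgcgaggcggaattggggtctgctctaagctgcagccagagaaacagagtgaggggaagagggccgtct
CANNTG, the same on both strands, occurred 2 times in the *Hand2* and *Sox11* promoters and 1 time in those of *Phox2a* and *Sox4*, and in 72.3% of the 32851 promoters of this length. TAATTA, a homeodomain core also equal on both strands, occurred 1 time in the *Hand2* promoter, in none of the other 3, and in 5.29% of all. The Sox letters ACAAAG and AACAAT, searched on both strands, were in none of the 4 windows, against 18.7% and 10.7% of all.

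The deposited matrices held between 39353313 and 113352559 UMIs per library. After the droplet filters 21442 cells remained, of which 7052 were called neurons and 8468 glia by markers that include none of the members. Neurons had medians of 26651 to 39381 UMIs in round 1 and 56713 to 108598 in round 2, and glia 3522 to 12151, so levels are given as CPM, the UMIs of a gene over all UMIs of the pooled cells. The labels were checked on 5 neuronal genes not used for the selection, which summed to 6888 to 9293 CPM in neurons against 321.9 to 1365 in glia, and on 5 glial genes, which summed to 9.29 to 40.3 CPM in neurons against 738 to 3943 in glia. Between 0 and 49 cell barcodes were shared by a pair of libraries, 122 in all being found in more than 1. No doublet caller was run. Intervals below are 95% Poisson or Wilson intervals and cover counting error only.

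*Phox2a* was present in neurons of every ganglion. Its level in neurons was 624 CPM in the stellate, 399 in the sphenopalatine and 379 in pelvic 1, and 864 in the coeliac, 987 in the lumbar and 549 in pelvic 2. Between 98.7% and 99.8% of the neurons of a library had at least 1 *Phox2a* UMI. Of the neurons with at least 10000 UMIs, each thinned to that number, between 94.9% and 100% did. Neurons with fewer UMIs were left out of all values thinned to 10000. They were 197 in the stellate, 27 in the sphenopalatine, 6 in pelvic 1, 22 in the coeliac, 62 in the lumbar and 52 in pelvic 2. Levels were thus higher in the 3 sympathetic libraries than in the sphenopalatine and either pelvic library, within each round.

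*Hand2* was as widespread, in 97.3% to 100% of neurons. It stood at 394 CPM in the stellate, 319 in the sphenopalatine and 289 in pelvic 1, and at 567 in the coeliac, 442 in the lumbar and 367 in pelvic 2. The order over all neurons was again sympathetic above sphenopalatine and pelvic within each round. The spread over libraries was smaller, 1.96 times from lowest to highest against 2.61 times for *Phox2a*, and both spreads include the difference between rounds. Pelvic neurons were mostly cholinergic (84.2% and 85.2%) and sympathetic ones mostly noradrenergic (90.4% to 97.1%), by the rule given below. Among noradrenergic neurons alone *Hand2* was not lower in the pelvic libraries. It had 424 CPM in pelvic 1 against 392 in the stellate, and 621 in pelvic 2 against 567 in the coeliac and 433 in the lumbar.

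*Sox4* was found in 91.8% to 99.3% of neurons, and *Sox11* in 71.8% to 92.8%. *Sox4* had 381 CPM in the stellate, 272 in the sphenopalatine and 330 in pelvic 1, and 743 in the coeliac, 795 in the lumbar and 370 in pelvic 2. *Sox11* had 84.7, 42.7 and 72.9 CPM in the same libraries of round 1 and 123, 133 and 78.5 in those of round 2. The sphenopalatine was the lowest of the round 1 libraries for both, and the lumbar the highest of the round 2 ones. After thinning to 10000 UMIs, *Sox11* was left in 34.5% of sphenopalatine neurons and in 67.9% of lumbar ones, which are of different rounds.

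*Insm1*, unlike the other members, was detected in only a minority of the neurons of each library at this age. Neurons had 0.995 CPM in the stellate, 0.197 in the sphenopalatine, 0.164 in pelvic 1, 4.51 in the coeliac, 1.19 in the lumbar and 0.298 in pelvic 2. A UMI was seen in 37 of 237 coeliac neurons (15.6%) and in 57 of 930 lumbar neurons (6.13%), and in 68 of 2724 in the stellate (2.50%). In the sphenopalatine it was 15 of 1903 (0.788%), in pelvic 1 it was 6 of 893 (0.672%) and in pelvic 2 it was 4 of 365 (1.10%). Of the 11 UMIs in pelvic 2 neurons, 8 were in a single cell. Glial cells showed an *Insm1* UMI in 0.104% to 1.26% of cells, at 0.242 to 2.13 CPM.

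**Figure D1:**
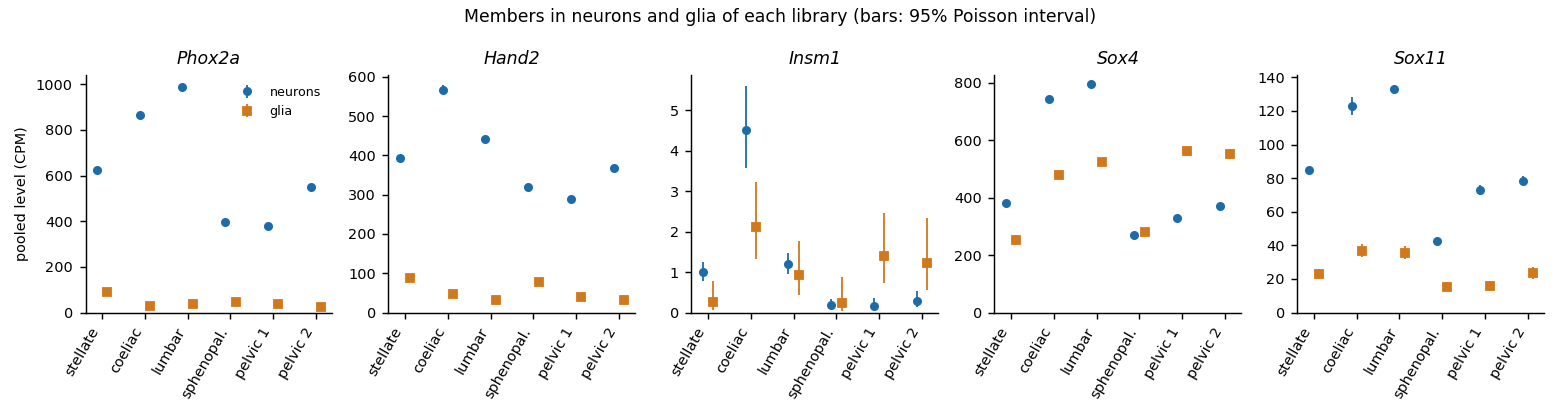
Pooled level of each member (CPM, linear axes from 0) in neurons (circles) and glia (squares) of the 6 libraries, sympathetic ganglia first, with 95% Poisson intervals. *Phox2a*, *Hand2* and *Sox11* lie above glia in every library, *Sox4* lies below glia in both pelvic libraries and slightly below in the sphenopalatine, and *Insm1* stays under 5 CPM.

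Pelvic means over the 2 libraries were 464 ± 120 CPM for *Phox2a*, 328 ± 55.1 for *Hand2*, 350 ± 28.3 for *Sox4*, 75.7 ± 3.93 for *Sox11* and 0.231 ± 0.0950 for *Insm1* (SD, n = 2 libraries). The spread includes the change of chemistry between rounds, so ganglia are set side by side within a round only, with a 2-fold difference as the rule of size and no test. *Sox11* was 1.99 times higher in stellate than in sphenopalatine neurons (interval 1.91 to 2.07), *Phox2a* 1.56 times (1.54 to 1.59), *Sox4* 1.40 times and *Hand2* 1.24 times. None of these 4 passed 2-fold on pooled counts, where 9.69% of genes with at least 10 CPM did in one direction or the other. Over the settings tried, the sphenopalatine to stellate ratio of *Sox11* ran from 0.454 to 0.5065, on both sides of 2-fold. In pelvic 1 against stellate neurons the 4 ratios ranged from 0.607 for *Phox2a* to 0.866 for *Sox4*, and 9.42% of genes passed 2-fold. Stellate neurons had fewer UMIs (median 26651) than sphenopalatine (38127) or pelvic 1 ones (39381), and SoxC levels fell with UMIs, as given below. In bins of neurons of near depth *Sox4* had 466 CPM in the stellate (median 26651) and 468 in pelvic 1 (28122). In deeper bins it had 240 CPM in the stellate (43714.5), and 336 (39387.5) and 261.5 (53966) in pelvic 1. In the sphenopalatine bins *Sox4* had 348.5 CPM (28318), 301 (38153) and 214.5 (52061). *Sox11* had 93.9 CPM in the stellate (26651) and 61.1 in the sphenopalatine (28318). In deeper bins *Sox11* had 62.3 CPM in the stellate (43714.5), and 42.1 (38153) and 34.0 (52061) in the sphenopalatine. The part of depth in these ratios was not tested. Coeliac and lumbar neurons differed by at most 1.28 times in these 4 genes, *Hand2* being the one higher in the coeliac, and 1.83% of genes passed. *Insm1* passed 2-fold in each of the 3 comparisons but never reached 10 CPM, with 3.79 times more in the coeliac than in the lumbar neurons (2.76 to 5.19, on 81 and 86 UMIs). The 81 UMIs lay in 37 neurons, with up to 11 in a single cell, a clumping that the interval does not cover. With neurons thinned to 10000 UMIs the coeliac to lumbar ratio was 1.615, and with neurons thinned to 2000 it was 1.47, so it did not pass 2-fold there.

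Cholinergic neurons were also compared alone. Between sphenopalatine and pelvic 1 cholinergic neurons the ratio was 1.10 for *Phox2a*, 1.19 for *Hand2*, 0.838 for *Sox4* and 0.630 for *Sox11*, where 7.35% of genes passed 2-fold. *Sox11* was thus the member that differed most among these 4, lower in the sphenopalatine (0.596 to 0.667). *Insm1* had 14 and 2 UMIs there, a ratio of 3.12 with an interval of 0.715 to 28.2.

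The question of which members are restricted to neurons was tested against the glia of the same libraries, with edgeR's quasi-likelihood test on 12 pools and the library as a block. *Phox2a* had a log2 fold change of 3.98 (SE 0.352, adjusted p = 1.90e-05), *Hand2* of 3.11 (SE 0.294, adjusted p = 2.72e-05) and *Sox11* of 1.94 (SE 0.118, adjusted p = 3.08e-06), each higher in neurons in 6 of 6 libraries. *Sox4* did not differ past the test, with a log2 fold change of 0.19 (SE 0.217, adjusted p = 0.446), nor did *Insm1*, with -0.10 (SE 0.634, adjusted p = 0.898). So 3 of 5 members were called, in a comparison in which 38.4% of the 15588 genes tested were higher in neurons and 36.6% higher in glia.

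Glial *Phox2a* and *Hand2* were low but not 0. Free RNA reaches every droplet, so the glial level was read as a share of the neuronal one and set beside 7 neuron-restricted genes, among them *Prph* and *Snap25*, which glia should lack. For *Phox2a* that share was 14.4% in the stellate, 11.4% in the sphenopalatine, 10.5% in pelvic 1, 3.59% in the coeliac, 3.68% in the lumbar and 4.60% in pelvic 2. The share of glial cells with a UMI, at their lower depth, was 12.2% to 27.4% for *Phox2a*, 11.8% to 31.3% for *Hand2*, 54.5% to 94.6% for *Sox4* and 5.03% to 23.5% for *Sox11*. By level, *Phox2a* lay inside the range of the neuron-restricted genes in all 6 libraries, so that its glial level was not above the highest of the genes which glia should lack. In pelvic 2, where *Scg2* alone carried the range to 16.9%, *Phox2a* lay above the median of the 7 genes (4.60% against 3.07%). It lay below the median in the other libraries. The glial level of *Hand2* lay inside that range in 4 libraries, but above the median of the 7 genes in each. It was 22.4% against a median of 21.5% in the stellate and 13.9% against 12.2% in pelvic 1. In the coeliac it was 8.16% against 5.03% and in pelvic 2 it was 8.66% against 3.07%. Of the 7 genes only *Scg2* stood higher in both pelvic libraries, and only *Snap25* in the coeliac. *Hand2* lay above the range in the sphenopalatine, at 24.3% where it ended at 14.1%, and in the lumbar, at 7.32% where it ended at 5.88%.

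The SoxC genes stood higher. The *Sox11* share was 21.5% to 36.3%, above the neuron-restricted range in 5 libraries and at its upper end in the stellate (27.0%, range to 27.1%). *Sox4* had 253 CPM in stellate, 280 in sphenopalatine, 563 in pelvic 1, 478 in coeliac, 524 in lumbar and 553 in pelvic 2 glia. In glia of both pelvic libraries it was therefore higher than in the neurons, with shares of 170.5% and 149%, and in the sphenopalatine it was about equal (103%). In the 3 sympathetic libraries it was 64.3% to 66.5%. The glial pools also held 5 fibroblast genes at a sum of 1414 to 4570 CPM (46.5 to 175 in neurons) and 5 genes of cycling cells at 321 to 786 CPM (6.16 to 13.1 in neurons), whose part in the *Sox4* level was not tested.

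**Figure D2:**
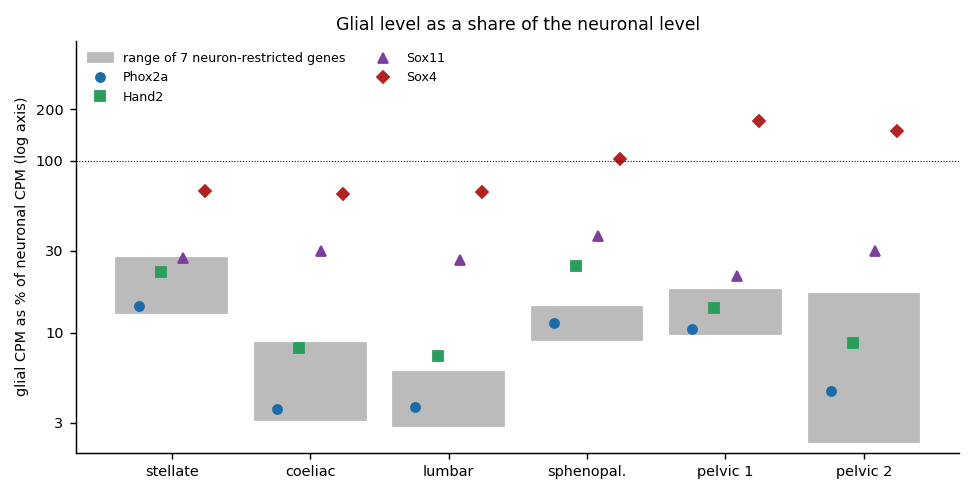
Glial CPM as a percentage of neuronal CPM of the same library (log axis), for 4 members (points) and the range of 7 neuron-restricted genes (grey bars). *Phox2a* lies in the grey range in all 6 libraries, and *Sox4* above 100% in the sphenopalatine and both pelvic libraries.

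Whether the neuron-to-glia difference itself differed between pelvic and sympathetic libraries was tested after these levels had been seen, in a fit over 5 libraries. Its 3 sympathetic libraries are different ganglia, taken as replicates. For *Sox4* the log2 difference was 0.72 in the 3 sympathetic libraries and -0.53 in the 2 pelvic ones, a gap of -1.25 (SE 0.210) that missed the threshold (edgeR, adjusted p = 0.0594). In this test 0.973% of genes were called. *Insm1* had a gap of -3.50 (SE 0.676, adjusted p = 0.0845), on 6 and 11 neuronal against 12 and 9 glial UMIs in the pelvic libraries, where 1 glial cell of pelvic 2 held all 9. *Phox2a*, *Hand2* and *Sox11* had gaps of -0.26 (SE 0.719), 0.03 (SE 0.548) and 0.17 (SE 0.225).

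Other cells of the ganglia carried the SoxC genes too. *Sox4* was at 227 to 527 CPM in endothelial cells, 147 to 361 in fibroblasts and 133 to 428 in mural cells, and at 34.4 to 115 in macrophages. *Sox11* was at 80.4 to 271 CPM in endothelial cells, a range that reaches above that of neurons, and at 6.49 to 65.5 in fibroblasts. In endothelial cells *Phox2a* reached at most 54.2 CPM and *Hand2* 61.7 CPM, both in the stellate.

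The pelvic ganglion allowed the comparison of 2 neurotransmitter classes within a library. Noradrenergic neurons were those with at least 2 UMIs of *Th*, the rate-limiting enzyme of catecholamine synthesis, and more of it than of *Chat* and *Slc18a3*, the acetylcholine synthase and transporter, together, and cholinergic neurons the reverse. There were 128 noradrenergic and 752 cholinergic neurons in pelvic 1, and 33 and 311 in pelvic 2. *Hand2* had 424 CPM in noradrenergic against 266 in cholinergic neurons of pelvic 1, and 621 against 338 in pelvic 2. It was higher in the noradrenergic class of both libraries. The 5 glial genes summed to 35.1 and 33.8 CPM in the cholinergic and 21.2 and 13.8 CPM in the noradrenergic pools of pelvic 1 and 2. Another 3 lists of 5 genes had higher sums in the noradrenergic pools, as *Hand2* was higher. Endothelial genes stood at 58.6 and 51.6 against 30.6 and 25.4 CPM, and mural genes at 22.3 and 11.7 against 10.8 and 5.36. Macrophage genes stood at 222 and 147 against 181 and 132. Gene by gene, in the test given below, these lists were mixed. The endothelial gene *Egfl7* was lower in cholinergic neurons (log2 fold change -1.26), but *Kdr* (2.79) and *Cdh5* (1.91) were higher. Of the mural genes tested only *Rgs5* was called, lower (-1.70), and no macrophage gene was called. *Egfl7* (1.15) and the macrophage gene *Adgre1* (3.30) were also higher in neurons than in glia. The part of these lists in the difference was not tested.

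Across all genes, *Hand2* was lower in pelvic cholinergic neurons by a log2 fold change of -0.75 (SE 0.151, edgeR quasi-likelihood with the library as block, adjusted p = 8.10e-06). It was the only one of the 4 members tested that was called, in a test that called 11.8% of 14181 genes higher in cholinergic and 9.68% higher in noradrenergic neurons. The fit rests on 2 libraries and 1 residual degree of freedom, so that its error borrows from the other genes, and without the library block the adjusted p was 0.290.

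*Phox2a* had 418 CPM in noradrenergic against 371 in cholinergic neurons of pelvic 1, and 516 against 552 in pelvic 2. *Sox4* had 355 against 325, and 390 against 368. *Sox11* had 104 against 67.8, and 75.0 against 78.9. The 2 libraries disagreed in the direction of *Phox2a* and *Sox11*, and no difference of these genes passed the test. The log2 fold changes were -0.01 for *Phox2a* (SE 0.153, adjusted p = 0.970), -0.08 for *Sox4* (SE 0.150, adjusted p = 0.791) and -0.27 for *Sox11* (SE 0.146, adjusted p = 0.207). *Insm1* had 4 UMIs in noradrenergic and 2 in cholinergic neurons of pelvic 1, and 0 and 10 in pelvic 2, and was too low to be tested.

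Cholinergic neurons were also found in the stellate (26 cells) and lumbar (42 cells) libraries, and there the pattern was another one. *Hand2* was higher in the cholinergic class, 623 against 392 CPM in the stellate and 589 against 433 in the lumbar. *Sox4* was lower, 71.2 against 383 CPM in the stellate and 254 against 820 in the lumbar. A *Sox4* UMI was present in 76.9% of stellate cholinergic neurons (58.0% to 89.0%) against 98.6% of noradrenergic ones. The cholinergic neurons were deeper, with medians of 43498.5 against 26888 UMIs in the stellate and 91102.5 against 71959 in the lumbar, and *Sox4* was lower in deeper neurons. In the noradrenergic neurons with the most UMIs, the highest of 3 bins of equal size, *Sox4* was at 244.5 CPM in the stellate (median of 43743 UMIs) and 566 in the lumbar (median of 126930), so the difference from cholinergic neurons was smaller there but of the same direction. In the same bins *Hand2* was at 437 CPM in the stellate and 450 in the lumbar. Its difference from the 623 and 589 CPM of cholinergic neurons was thus also smaller there, and of the same direction. The pelvic classes had like depths, 39758.5 and 39542.5 UMIs in pelvic 1 and 115153 and 113424 in pelvic 2. Within the stellate, *Sox4* was 5.38 times lower in cholinergic neurons (4.30 to 6.82), and 11.9% of genes passed 2-fold. Set beside sphenopalatine cholinergic neurons, those of the stellate had 3.82 times less *Sox4* (3.06 to 4.84) and 3.03 times more *Sox11* (2.54 to 3.59), where 11.3% of genes passed. *Hand2* was 1.97 times higher in the stellate ones and *Phox2a* 1.21 times. *Insm1* was at 0 UMIs in the 26 stellate cholinergic neurons, which allows up to 3.41 CPM, and at 1 UMI in the 42 lumbar ones.

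The change of direction was tested as an interaction of class and origin over pelvic 1, pelvic 2, stellate and lumbar, a test chosen after the levels had been seen. *Hand2* differed between cholinergic and noradrenergic neurons by 0.47 on the log2 scale in the sympathetic and by -0.75 in the pelvic libraries, a gap of -1.22 (SE 0.181, edgeR, adjusted p = 3.88e-06). *Sox4* differed by -2.04 (SE 0.158) in the sympathetic and -0.07 (SE 0.141) in the pelvic libraries, a gap of 1.97 (SE 0.211, adjusted p = 5.34e-09). *Phox2a* (gap 0.46, SE 0.188, adjusted p = 0.116) and *Sox11* (gap -0.54, SE 0.217, adjusted p = 0.112) were not called. In this test 11.8% of the 14881 genes were called. The fit has few residual degrees of freedom, so that its error borrows from the other genes. Its sympathetic side is a single stellate and a single lumbar library, taken as replicates though they are different ganglia. Leaving out any 1 of the 4 libraries kept the *Hand2* gap between -1.27 and -1.15 and the *Sox4* gap between 1.65 and 2.50, all called. In the cholinergic pools of the stellate and lumbar libraries, 5 glial markers summed to 13.0 and 77.0 CPM, against 11.7 and 7.81 in the noradrenergic ones, with none of the 5 at 0. Sums of mural genes were lower in the cholinergic pools, as *Sox4* was. They were 2.77 against 64.8 CPM in the stellate and 2.44 against 26.0 in the lumbar, with 3 and 2 of the 5 at 0. Sums of macrophage genes (116 against 66.3, and 96.5 against 24.3 CPM) were higher in the cholinergic pools, as *Hand2* was. So were those of endothelial genes (69.4 against 51.8, and 42.9 against 28.5 CPM). Of the 5 macrophage genes 1 was at 0 in each cholinergic pool, and of the 5 endothelial genes 2 in the lumbar one. The sums include *Adgre1* and *Egfl7*, which were higher in neurons than in glia (log2 fold changes 3.30 and 1.15). The mural gene *Rgs5* did not differ past that test (-0.20). The part of these in the class differences was not tested.

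**Figure D3:**
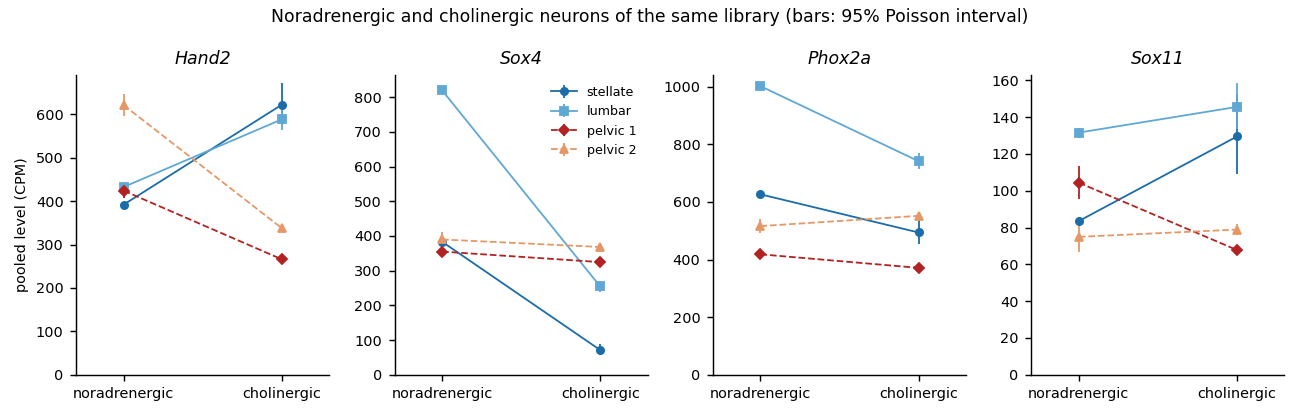
Pooled CPM (linear axes from 0) in noradrenergic and cholinergic neurons of the 4 libraries that held at least 20 of each, joined within a library, with 95% Poisson intervals. *Hand2* runs up in the stellate and lumbar and down in both pelvic libraries, and *Sox4* falls steeply in the stellate and lumbar and little in the pelvic libraries. The panels are *Hand2*, *Sox4*, *Phox2a* and *Sox11*.

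Noradrenergic neurons of the pelvic ganglion were then compared with those of the 3 sympathetic ganglia, with the round as a term. The sympathetic side is a single library of each ganglion, so the spread includes differences between ganglia. With few residual degrees of freedom, the error borrows from the other genes. *Phox2a* was lower in pelvic noradrenergic neurons, 418 and 516 CPM, than in those of the stellate (627), coeliac (864) and lumbar (1002). Sums of 5 mural genes were likewise lower in the pelvic pools (22.3 and 11.7 against 64.8, 41.1 and 26.0 CPM). Sums of 5 macrophage genes were higher (222 and 147 against 66.3, 45.3 and 24.3 CPM). So were those of 5 glial genes (21.2 and 13.8 against 11.7, 9.28 and 7.81 CPM), none of them called. Of the mural genes tested only *Rgs5* was called, lower in pelvic neurons (log2 fold change -1.66). Of the macrophage genes only *Adgre1* was called, higher (2.05), and it was also higher in neurons than in glia (3.30). *C1qb* (-2.02) and *C1qa* (-0.935) were lower and *Csf1r* (1.03) and *Cd68* (0.20) higher, with no call. The part of these lists was not tested. The log2 fold change of *Phox2a* was -0.76 (SE 0.134, edgeR, adjusted p = 0.0322). *Phox2a* was 1 of 5 members called, where 3.38% of the 14326 genes tested were higher in pelvic and 3.29% higher in sympathetic neurons. The call was lost without the stellate (adjusted p = 0.121), of pelvic 1 (0.119) or of pelvic 2 (0.261), with log2 fold changes of -0.88, -0.90 and -0.63, and without the round term (0.235).

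*Sox4* had 355 and 390 CPM in pelvic noradrenergic neurons, below coeliac (737) and lumbar (820) but next to the stellate (383). Its log2 fold change of -0.63 (SE 0.221) missed the threshold (adjusted p = 0.163). *Hand2* had 424 and 621 CPM in the pelvic pools against 392 to 567 in the sympathetic ones, which overlap (log2 fold change 0.21, SE 0.134, adjusted p = 0.411). *Sox11* overlapped as well (-0.29, SE 0.252, adjusted p = 0.557), and *Insm1* gave -1.90 with an SE of 1.28 (adjusted p = 0.437). Within round 1 the stellate to pelvic ratios ran from 0.800 for *Sox11* to 1.50 for *Phox2a*, and 6.86% of genes passed 2-fold. Within round 2 *Sox4* reached 2.10 times more in the lumbar (2.00 to 2.22, where 7.72% of genes passed) and 1.89 times more in the coeliac (where 6.0% did). Pelvic 2 noradrenergic neurons were deeper (median of 115153 UMIs) than lumbar (71959) and coeliac ones (58522), and *Sox4* was lower in deeper neurons. In the deepest of 3 bins *Sox4* was at 566 CPM in the lumbar (median of 126930) and 447 in the coeliac (143221). Those values lie nearer to the 390 CPM of pelvic 2. The part of depth was not tested.

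**Figure D4:**
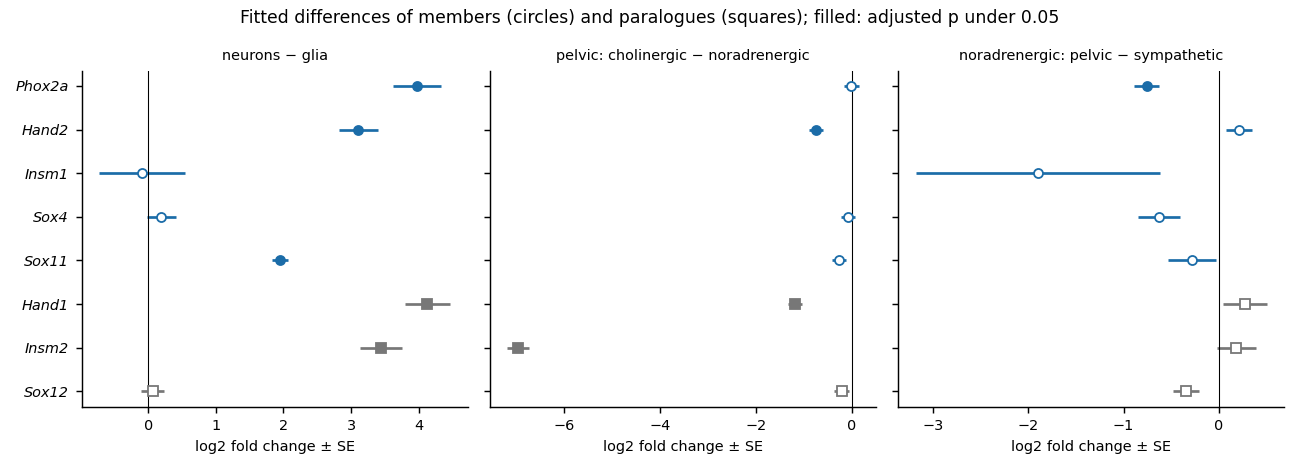
Log2 fold change ± SE of members (circles) and 3 paralogues (squares) in the 3 tests across all genes, filled where the adjusted p is under 0.05. *Phox2a*, *Hand2* and *Sox11* are called over glia, *Hand2* alone among members between pelvic classes, and *Phox2a* alone between pelvic and sympathetic noradrenergic neurons.

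Among neurons of a library, the SoxC genes and *Insm1* varied with the total UMIs of the cell, and *Phox2a* and *Hand2* varied less. The neurons of each library were divided into 3 bins of equal size by total UMIs, a division chosen after the levels had been seen and given with no test. In the bin with the fewest UMIs *Sox4* was 1.52 to 3.22 times as high as in the bin with the most, and *Sox11* 1.39 to 3.04 times, in 6 of 6 libraries each. In the coeliac *Sox4* stood at 1468, 1193 and 456 CPM from the fewest to the most UMIs, and in the lumbar at 1357, 1003 and 549. In pelvic 1 it stood at 468, 336 and 262 CPM. Levels fell from bin to bin in each library for *Sox4* and for *Sox11*.

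*Insm1* followed the same order in the sympathetic libraries, with 13.9, 5.06 and 2.94 CPM in the coeliac, 4.50, 1.03 and 0.493 in the lumbar and 2.80, 0.908 and 0.496 in the stellate. For *Phox2a* the ratio of the lowest to the highest bin was 0.866 to 1.18. For *Hand2* it was 0.615 to 1.15, the lowest in the stellate, where *Hand2* rose from 272 to 442 CPM. Within the larger neurotransmitter class of each library, the ratios were 1.62 to 3.06 for *Sox4* and 1.58 to 2.95 for *Sox11*.

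Markers of other cells in the same bins did not all move with these genes. The 5 endothelial genes were higher in the lowest bin in 1 of 6 libraries (17.7 to 35.1 CPM there, against 24.8 to 63.9 in the highest bin), and the 5 glial genes in 3 of 6 (4.83 to 47.0 against 11.6 to 48.6 CPM). The 5 fibroblast genes were higher in the lowest bin in 6 of 6 libraries, at 68.8 to 319 against 53.9 to 145 CPM. The 5 genes of cycling cells were higher there in 4 of 6 libraries, at 7.25 to 17.5 against 5.63 to 13.2 CPM, with the largest ratio of 2.22 in the stellate. Their part in the result was not tested.

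**Figure D5:**
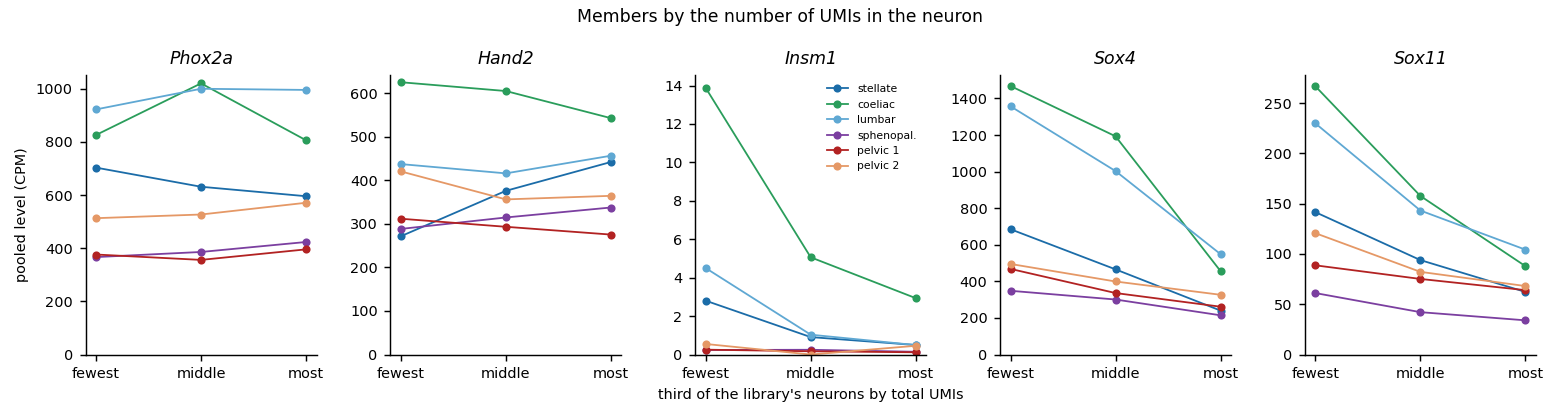
Pooled CPM (linear axes from 0) of each member in the bins of a library's neurons with the fewest, the middle and the most UMIs, 1 line per library. *Sox4* and *Sox11* fall in all 6 lines and *Phox2a* stays within 0.866 to 1.18 times between the outer bins.

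Genes of immature neurons were read in the same bins. *Dcx*, a microtubule protein of migrating neurons, was 1.03 to 2.01 times as high in the lowest as in the highest bin, in 6 of 6 libraries, and *Tubb2b* 1.11 to 1.48 times. *Stmn1* was higher there in 5 libraries and *Elavl4*, an RNA-binding protein kept in mature neurons, in 3. The ratios of both SoxC genes had medians of 2.13 and 2.00, above those of *Dcx* (1.46) and *Stmn1* (1.31).

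Neurons with an *Insm1* UMI were numerous enough to be pooled in the 3 sympathetic libraries, a division also chosen after the levels had been seen and given with no test. They carried more *Sox11* than the neurons without, 221 against 107 CPM in the coeliac, 200.1 against 129 in the lumbar and 121 against 84.0 in the stellate. *Sox4* was 1.14 to 1.25 times as high in them, *Phox2a* 0.979 to 1.03 times and *Hand2* 0.871 to 1.02 times. These neurons also had fewer UMIs, with a median of 44638 against 58066.5 in the coeliac.

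The number of members detected in a neuron differed between libraries of unlike depth. At least 4 of the 5 members were found in 71.6% of sphenopalatine neurons, 77.1% of stellate, 81.6% and 83.1% of pelvic, 89.0% of coeliac and 91.6% of lumbar ones. All 5 were found in 15.6% of coeliac neurons, which are all that had *Insm1*, and in 0.560% of pelvic 1 neurons. Neurons of at least 10000 UMIs were also thinned to that number. Exactly 4 were then found in 28.2% of sphenopalatine, 39.0% of pelvic 1 and 43.1% of pelvic 2 neurons. The share was 46.1% in the stellate and 63.5% in the lumbar, with the coeliac between them. The stellate, below both pelvic libraries before thinning, was thus above them after it. That change includes the neurons left out as too shallow, 197 in the stellate, 6 in pelvic 1 and 52 in pelvic 2. Across neurons thinned to 10000 UMIs, log counts of *Sox4* and *Sox11* had Pearson correlations of 0.059 to 0.415 over the 6 libraries, and the other 9 pairs lay between -0.237 and 0.274. In such sparse counts these are descriptions only.

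Paralogues of *Hand2* and *Insm1* were not as evenly spread. *Hand1*, the closest relative of *Hand2*, had 1 UMI in all 1903 sphenopalatine neurons against 252 CPM in the stellate and 142 and 120 in the pelvic libraries. *Insm2*, the relative of *Insm1*, had 1 UMI in the sphenopalatine as well, and 71.9 CPM in the stellate, 39.8 in the coeliac and 57.9 in the lumbar. *Hand2* thus had a level of 319 CPM in a ganglion in which *Hand1* was all but absent, and *Insm1* was below 5 CPM where *Insm2* was well detected.

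Between pelvic classes both paralogues went with *Hand2*. *Insm2* had 79.9 CPM in noradrenergic and 0.608 in cholinergic neurons of pelvic 1, and 60.4 and 0.484 in pelvic 2. Its log2 fold change was -6.97 (SE 0.224, edgeR, adjusted p = 3.00e-202). As for *Hand2*, that fit rests on 2 libraries and 1 residual degree of freedom, and its error borrows from the other genes. *Hand1* had 276 against 120 CPM in pelvic 1 and 245 against 105 in pelvic 2 (log2 fold change -1.19, SE 0.144, adjusted p = 4.78e-15). In the interaction of class and origin, *Hand1* had a gap of -0.86 (SE 0.189, adjusted p = 0.00120) and *Insm2* one of -3.48 (SE 0.439, adjusted p = 1.53e-07). The differences of *Hand1* were -0.32 in the sympathetic (adjusted p = 0.0983) and -1.18 in the pelvic libraries, and those of *Insm2* -3.48 and -6.97, of 1 sign on both sides. Over glia, *Hand1* and *Insm2* were called higher in neurons, and *Sox12*, a further SoxC gene, was not (log2 fold change 0.06, SE 0.174, adjusted p = 0.760).

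Of 8 further autonomic factors, 7 were higher in neurons than in glia (38.4% of all genes) and 1 lower (36.6% of all), *Tfap2a*, an AP-2 factor of the neural crest (log2 fold change -5.67, SE 0.346, adjusted p = 3.25e-06). The largest rise was that of *Hmx1* (4.27, SE 0.457) and the smallest that of *Gata2* (3.00, SE 1.07). The median log2 fold change of the list was 3.59, against 0.03 over all genes. Between pelvic classes, 5 of the 8 were higher in noradrenergic neurons, where 9.68% of all genes were, *Tfap2b* (-5.91), *Gata2* (-2.45), *Tbx20* (-1.68), *Isl1* (-1.56) and *Gata3* (-0.58), and *Hmx1* was higher in cholinergic neurons (5.92). *Hmx1* had 6 UMIs in the noradrenergic neurons of each pelvic library, and pelvic noradrenergic neurons were lower than sympathetic ones in it (-7.44, SE 0.462, adjusted p = 0.00226), while *Tfap2b* was higher in them (0.59, SE 0.0904, adjusted p = 0.0232).

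The noradrenergic list held genes of transmission and *Ret*, and all 7 were higher in neurons than in glia, beside 38.4% of all genes. Between pelvic classes, 5 of the 6 tested (*Th* having chosen the classes) were higher in noradrenergic neurons, beside 9.68% of all genes, from *Gch1* (-3.39) to *Slc6a2*, the noradrenaline transporter (-7.87), and *Ret*, a receptor of neurotrophic factors, was higher in cholinergic ones (1.44). Of 10 immature neuron genes, 7 could be tested against glia and 6 were higher in neurons, beside the same 38.4%, *Elavl3* most (3.97) and *Stmn1* least (0.86), *Marcksl1* being the one not called. Between pelvic classes *Dcx* (-1.50) and *Marcksl1* (-0.39) were lower in cholinergic neurons, and *Nhlh2*, a helix-loop-helix factor, was higher, with 82 and 155 UMIs in cholinergic and 0 in both noradrenergic pools. The glial Sox genes *Sox10*, *Sox2* and *Sox8* were lower in neurons (-6.77, -6.75 and -3.55), and *Sox9* was not called (-1.26, SE 0.784, adjusted p = 0.175).

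Between pelvic and sympathetic noradrenergic neurons, 3 of 6 genes of the noradrenergic list, *Ret* included, were called. So were 4 of 7 neuron-restricted genes, 1 of 6 immature neuron genes and 1 of 4 glial Sox genes, beside 3.38% and 3.29% of all genes in either direction. *Ret* was higher in pelvic neurons (1.04), *Slc6a2* (-1.38) and *Ddc* (-1.05) lower, *Stmn1* lower (-0.75), and *Sox9* higher (4.15, on 28 and 24 pelvic UMIs). Of the 7 neuron-restricted genes, *Scg2* (1.76) and *Snap25* (0.68) were higher and *Syt1* (-0.93) and *Chrnb4* (-0.79) lower.

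The genes most alike to each member were sought over 8 neuron pools, the 4 single ganglia and the 2 pelvic classes of both libraries, by Pearson correlation of log2(CPM + 1) among 9630 genes. *Phox2a* was followed by *Sap30bp* (r = 0.98), *Cad* (0.97) and *Mms19* (0.97), and *Hand2* by *Gucy1b1* (0.99), *C130073E24Rik* (0.98) and *B3gnt2* (0.98). *Sox4* was followed by *Lbh* (0.98), *Eif4e2* (0.98) and *Rnf150* (0.97), and *Sox11* by *Cdc42ep3* (0.96), *Erg28* (0.93) and *Bmi1* (0.93). *Insm1*, which rests on few UMIs, was followed by *Sox6* (0.95), *Syne2* (0.93) and *Calb2* (0.92). Among the members themselves, *Phox2a* and *Sox4* were most alike (r = 0.94, or 0.88 with each round centred), then *Sox4* and *Sox11* (0.85 and 0.81). *Hand2* was less like *Phox2a* (0.56 and 0.24). The pools share libraries and rounds and are few, so these values describe the 8 pools only.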

How the data were processed

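The authors sequenced 6 libraries of mouse ganglia and deposited counts, UMIs per gene and droplet, without normalization. Per the labels, Cell Ranger 6.0.1 and mm10 were used. Replicates were not pooled, and the number of pups behind a library was not given in the sources used here. Where nothing says that the pelvic libraries came from separate animals, p-values measure the spread between libraries, which may be technical. In tests that take in several ganglia, that spread also includes differences between ganglia.

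Droplets were kept if they had more than 1500 genes, fewer than 11000, and a mitochondrial share below 15%, and normalized with sctransform 0.4.2 (Seurat 5.3.0, R 4.3.3). Neurons had a mean of *Stmn2*, *Stmn3*, *Gap43* and *Tubb3* over 3 and a mean of 5 glial genes, among them *Ttyh1*, *Fabp7*, *Cryab* and *Mal*, below 1.15, and glia the reverse. UMIs were summed per library and class, and classes under 20 cells were not used. The sums were tested over all genes that passed filterByExpr with edgeR 4.0.16 (TMM scaling, glmQLFTest, Benjamini-Hochberg, adjusted p under 0.05), leaving out the genes that chose the cells. DESeq2 1.42.0 was an alternative. Levels, thinning and intervals were computed with Python 3.11.15, numpy 2.4.6 and scipy 1.17.1. In simulated counts with 200 changed genes, 69% of 2-fold and 93% of 4-fold changes were recovered for neurons against glia (15588 genes), 73% and 93% for the pelvic classes (14181 genes) and 48% and 88% for pelvic against sympathetic neurons (14326 genes). Unchanged genes called were 4, 7 and 3. The simulation gave all genes a common dispersion and held no differences between libraries, ganglia or rounds. It checks the code and does not give the power of the tests on the data.

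The alternatives were other scalings, no filter, other choices of neurons and classes, no library block or round term, single rounds, other depths and each library left out. The genes named are the members, paralogues and fixed lists, some genes of which are not reported here, from which called genes and the largest and smallest changes are given, and the 3 genes most alike to each member. Members and lists were chosen with earlier results of these data known. A library block pairs the pools of 1 dissociated ganglion preparation.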

Additional observations from a re-analysis of the deposited data

Results flagged for a closer look

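The following results were set apart because the cholinergic to noradrenergic difference was not the same in pelvic and in sympathetic libraries, by a test of the difference itself (edgeR, adjusted over 14881 genes). For *Hand2* the gap, pelvic minus sympathetic, was -1.22 on the log2 scale (adjusted p = 3.88e-06), with cholinergic neurons lower in 2 of 2 pelvic libraries and higher in the stellate and the lumbar. For *Sox4* the gap was 1.97 (adjusted p = 5.34e-09), with cholinergic neurons lower in the stellate and the lumbar and near equal in both pelvic libraries. The sympathetic side rests on 26 and 42 cholinergic neurons, deeper than the noradrenergic ones, from a single stellate and a single lumbar library. With few residual degrees of freedom, the error of the fit borrows from the other genes. The test was chosen after the levels had been seen.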

How the results depend on the processing

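Of the member and total results, no direction of a called value turned under any setting tried. For pelvic cholinergic against noradrenergic neurons, DESeq2's test called 828 and 706 genes in place of 1672 and 1373, and the fit without the library block 307 and 229, with *Hand2* at -0.76 (adjusted p = 0.290). Leaving out 1 pelvic library moved *Phox2a* between -0.19 and 0.17 and *Sox11* between -0.64 and 0.15, each a value with no test. For pelvic against sympathetic noradrenergic neurons, 484 and 472 genes became 1147 and 1446 without the filter, with *Insm1* at -1.94 (adjusted p = 0.0440) and *Sox4* at -0.67 (adjusted p = 4.17e-05) then called. DESeq2's test called 791 genes higher in pelvic neurons and *Sox4* at -0.63 (adjusted p = 0.0319). Without the round term the counts were 103 and 77, with *Phox2a* at -0.84. With 1 library left out they ranged from 18 to 831 and from 32 to 799, and *Phox2a* from -0.90 to -0.63, the fewest being called without pelvic 2 (18 and 32) and the most without the coeliac (831 and 799); without the stellate they were 56 and 49, without pelvic 1 they were 55 and 60, and without the lumbar 748 and 731. The gap of *Sox4* between neurons and glia passed the threshold at -1.28 on library totals (adjusted p = 0.0440) and at -1.18 without the filter (adjusted p = 0.0379). The cause was not tested. For neurons against glia, scaling by library totals moved the median of all genes from 0.03 to -0.09 and no filter to 0.22 on the log2 scale. As a mean over cells *Sox4* was 0.977 to 1.35 times and *Insm1* 1.11 to 2.75 times its pooled level, and with neurons thinned to 2000 UMIs *Insm1* was 0 to 4.60 times. Depth limits *Insm1*, which had 6 to 86 UMIs in the neurons of a library. No paired analysis across ganglia was made, because the sources do not say which libraries came from the same pups.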
